A study of Mus musculus with 6 samples.

Results

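Of the 7959 assembled transcript models counted in these libraries, 4 lay at 3 loci that held between 7.19% and 57.9% of all reads of a library. They were chosen by position on mouse build mm10: any model overlapping a ribosomal repeat copy on chromosome 17, any model in a short window inside the span of Zc3h7a on chromosome 16, and any model lying within the span of Lars2 on chromosome 9. The loci were picked because earlier results had shown their very large or uneven read numbers, so their levels are given as a description, with no test on the loci themselves. The models came from RNA sequencing of 6 libraries of MEL cells, a mouse erythroleukemia line labelled C57BL/6, grown in serum-containing medium and crosslinked with formaldehyde. The groups, 2 libraries each, were input chromatin, material pulled down with the polyamide TH59-DB, built of pyrrole and imidazole units to bind telomeric DNA, and material pulled down with masked TH59-DB, which the labels give as the negative control. All 6 libraries were made with a total RNA kit, and all share the same cell line, strain and crosslinking. The labels do not tell whether libraries of the same group are separate cultures, so p-values cover only the spread between the libraries at hand.

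Ribosomal RNA is transcribed by RNA polymerase I from tandem repeats in the nucleolus and makes up most of the RNA of a growing cell. The genome also carries isolated copies and fragments of these repeats outside the arrays, and reads from near-identical copies cannot be placed with certainty. Because sequencing divides a fixed number of reads among all RNAs, a single very abundant feature can change the apparent level of every other feature when libraries are scaled by their total. Zc3h7a encodes a CCCH-type zinc-finger protein that binds RNA, and Lars2 encodes the mitochondrial leucyl-tRNA synthetase.

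The library totals recovered from the deposited FPKM values ran from 1803723 to 3122558 reads. The summed counts of the models came to 35.7% to 69.2% of them. Some models overlap and have near-equal counts, such as 34413 and 34257 for 2 models of Rpph1 in TH59-DB 1. A read may therefore be counted more than once in such sums. Masked TH59-DB 1 stood apart, with 4341 of the 7955 other models at 0 reads, against 0 to 1884 in the other libraries. TH59-DB 1 stood apart the other way, since every one of the 7955 other models had at least 5 reads there. Models were assigned to 8 of 16 erythroid genes, among them Gata1, Zfpm1 and Klf1 but none of the globin genes. Each gene was represented by its model with the most reads. The summed level of the 8 was 457 to 606 CPM in the input, 247 to 559 in masked TH59-DB and 177 to 254 in TH59-DB. CPM is reads per 1000000 of the library total. Of 10 marker genes of other blood cells 2 had a model, Itga2b and Laptm5, with summed levels of 13.7 to 31.5, 1.52 to 24.7 and 6.18 to 19.96 CPM in the same order; Ptprc, Cd3e and Mpo had none.

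The label of the loci as ribosomal RNA-like could be checked for the chromosome 17 model alone. That model is a single exon of 6105 bases (chr17:39842884-39848988), and only 2 of the 7959 models are longer. It covers all 1849 bases of Rn18s-rs5, which RefSeq annotates as a pseudogene related to the small-subunit ribosomal RNA. Rn18s-rs5 makes up 30.3% of the model. The last 877 bases of the model overlap the long noncoding RNA gene AY036118, in part the same bases as Rn18s-rs5. The 3470 bases before Rn18s-rs5 lie outside the spans of Rn18s-rs5 and AY036118. Whether any other gene span overlaps them was not tested, so the part of the model related to ribosomal RNA may be larger than Rn18s-rs5. The Zc3h7a model is a single exon of 414 bases (chr16:11143911-11144324) inside the 39800-base span of that gene, 7317 bases from its low-coordinate end. The 2 Lars2 models are single exons as well: an end model of 393 bases (chr9:123461798-123462190), 485 bases from the 3′ end of the gene's span, and an inner model of 173 bases (chr9:123436247-123436419), 26256 bases from that end. Nothing in the annotation used here ties the Zc3h7a or Lars2 models to ribosomal RNA, so they are called by their gene spans below. Whether they fall in exons, introns or untranslated regions was not analysed here, since the annotation gave gene spans only. The strand of the models could not be read from the files, which write it differently for the 2 libraries of a group. The RefSeq promoter windows of Zc3h7a, Lars2 and AY036118 overlapped none of the models.

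The nearest model on either side of each locus had fewer reads than the largest model of that locus in every library. The nearest models to the Zc3h7a model, in the spans of Gm4262 (130353 bases away) and Rsl1d1 (49190 bases away), had at most 17 and 130 reads in any library. The nearest models to the chromosome 17 repeat lay 1840740 and 4973321 bases away and had at most 26 and 10 reads. The nearest models outside the Lars2 span lay 409063 and 34911 bases from the Lars2 models and had at most 54 and 15 reads. The inner Lars2 model itself had only 11 to 42 reads, so these neighbours were of similar size to it.

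The model in the Zc3h7a span was the most abundant model in 5 of the 6 libraries and the second in TH59-DB 2. It had 419444 and 409386 reads in input 1 and 2, 1000339 and 419799 in masked TH59-DB 1 and 2, and 376061 and 71781 in TH59-DB 1 and 2. These were 14.1% and 14.3% of the input libraries, 50.8% and 13.4% of the masked TH59-DB libraries, and 20.8% and 2.77% of the TH59-DB libraries. Masked TH59-DB 1 was the highest library and TH59-DB 2 the lowest, 18.3-fold apart. Counting error was far smaller than these gaps, with an exact (Clopper-Pearson) 95% interval of 50.7% to 50.8% in the former and 2.75% to 2.79% in the latter; such intervals cover counting error only. The group means were 14.2% ± 0.204 (SD, n = 2) in the input, 32.1% ± 26.4 (SD, n = 2) in masked TH59-DB and 11.8% ± 12.8 (SD, n = 2) in TH59-DB. The captured groups overlapped each other and the input. The mean of TH59-DB was 0.368 times that of masked TH59-DB, and 0.879 times without masked TH59-DB 1. The mean of masked TH59-DB was 2.26 times that of the input, and 0.947 times without that same library. In bulk libraries a share cannot tell more RNA from a locus apart from less RNA of everything else.

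The chromosome 17 repeat model held a steadier share. It had 262791 and 221192 reads in input 1 and 2, 140564 and 243318 in masked TH59-DB 1 and 2, and 166778 and 114250 in TH59-DB 1 and 2. These were 8.80% and 7.75%, 7.13% and 7.79%, and 9.25% and 4.41% of the libraries, so 5 libraries lay between 7.13% and 9.25% and TH59-DB 2 lay below them. The highest share was 2.10 times the lowest. Group means were 8.28% ± 0.746 (SD, n = 2), 7.46% ± 0.467 (SD, n = 2) and 6.83% ± 3.42 (SD, n = 2), and TH59-DB spanned both other groups. The model ranked second in 5 libraries and first in TH59-DB 2.

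The Lars2 models were much smaller and followed another order. The end model had 6523 and 1125 reads in input 1 and 2, 212 and 435 in masked TH59-DB 1 and 2, and 302 and 115 in TH59-DB 1 and 2. Both input libraries were above all 4 captured libraries, and the captured groups overlapped. The inner model had 11 to 42 reads in every library, and the end model held 90.6% to 99.8% of the reads of the pair. Together the pair held 0.219% and 0.0409% of the input libraries, 0.0119% and 0.0144% of masked TH59-DB, and 0.0177% and 0.00487% of TH59-DB. The exact 95% interval of the smallest share, in TH59-DB 2, was 0.00405% to 0.00579%. The mean share in the input was 9.88-fold that of masked TH59-DB and 11.5-fold that of TH59-DB, but the input libraries themselves differed by 5.55-fold in the end model. Without input 1, the mean of masked TH59-DB was 0.322 times and that of TH59-DB 0.276 times the share in the remaining input library, against 0.101 and 0.0868 times with it.

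**Figure D1:**
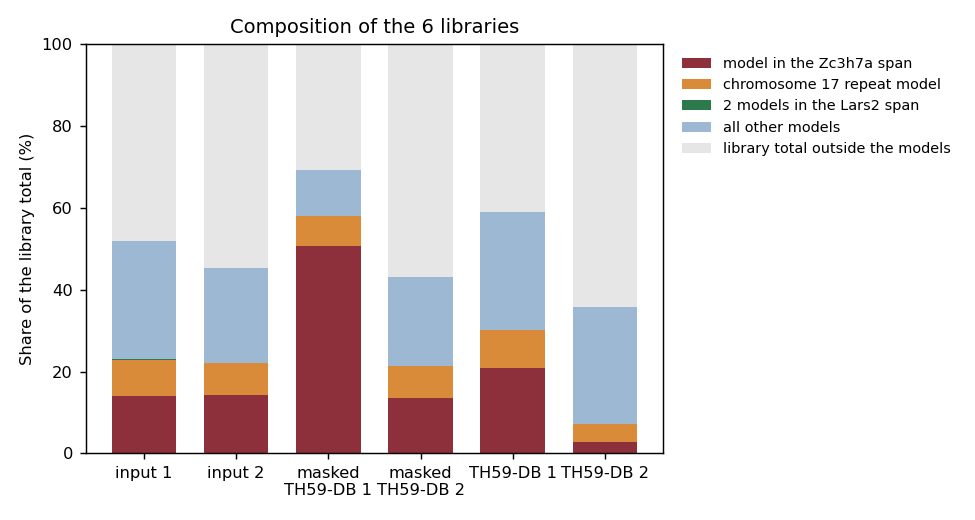
Stacked bars give percentages of each library total. The parts are the Zc3h7a model, the chromosome 17 repeat model, the 2 Lars2 models, the summed counts of all other models, and the remainder of the total. The Zc3h7a model alone fills 50.8% of masked TH59-DB 1 and 2.77% of TH59-DB 2, while the Lars2 models are too small to see in most bars.

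**Figure D2:**
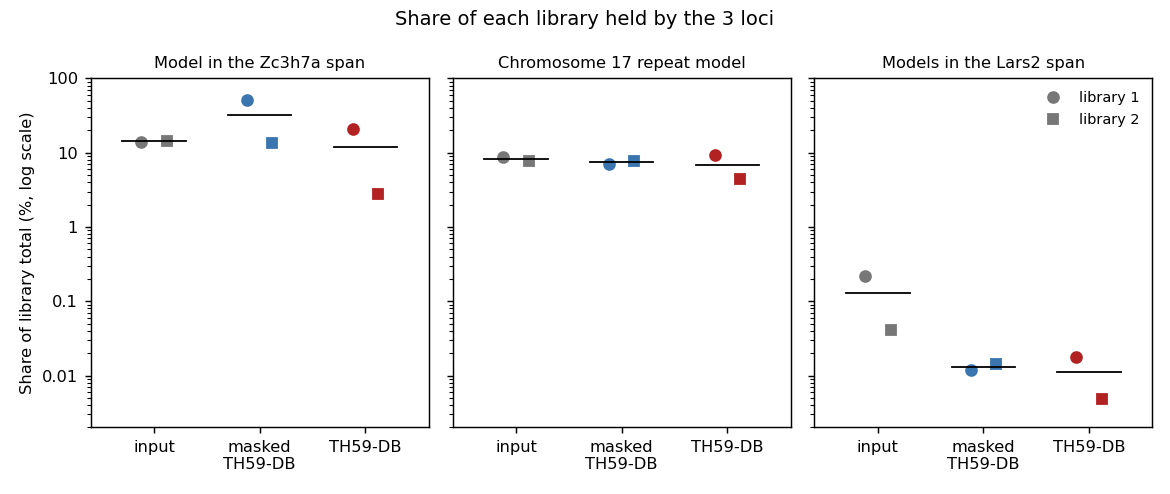
Points give the share of the library total (percent, log axis) of each locus in each library, with circles for library 1, squares for library 2 and a line at the mean of the 2 libraries. The chromosome 17 repeat model stays between 4.41% and 9.25%, the Zc3h7a model runs from 2.77% to 50.8%, and the Lars2 models are highest in both input libraries.

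The large loci differed in how far they moved between the libraries of a group. The Zc3h7a share differed 1.02-fold between the input libraries, 3.78-fold between the masked TH59-DB libraries and 7.52-fold between the TH59-DB libraries. Among other models with at least 100 reads in both libraries of a group, the median fold was 1.52 in the input (587 models), 1.60 in masked TH59-DB (300 models) and 1.51 in TH59-DB (291 models). A larger fold than that of the Zc3h7a model was seen in 98.5%, 7.33% and 2.75% of these models. For the chromosome 17 repeat model the folds were 1.14, 1.09 and 2.10, and 90.5%, 87.7% and 27.1% of the other models had larger ones. The spread of the Zc3h7a model in the captured groups thus lay among the wider ones, and its spread in the input among the narrower ones. These ranks are a description only, since uneven read numbers were among the reasons for picking the loci. All folds were taken on library totals that include the Zc3h7a reads, 50.8% of the total in masked TH59-DB 1.

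Per base of model length, the Zc3h7a model was far denser than the chromosome 17 repeat. Its FPKM as deposited was 339388 and 346360 in input 1 and 2, 1226015 and 324736 in masked TH59-DB 1 and 2, and 503603 and 66967 in TH59-DB 1 and 2. The chromosome 17 repeat model had FPKM values of 14419 and 12691, 11683 and 12764, and 15145 and 7228. The FPKM of the Zc3h7a model was therefore 23.5 and 27.3 times that of the repeat in the input, 105 and 25.4 times in masked TH59-DB, and 33.3 and 9.26 times in TH59-DB. The 2 input libraries and masked TH59-DB 2 lay close together on this ratio, masked TH59-DB 1 above them and TH59-DB 2 below. The Lars2 end model had FPKM values of 5560 and 1003, 274 and 354, and 426 and 113. Across the 6 libraries the log2 CPM of the Zc3h7a and repeat models had a Pearson correlation of 0.702, that of the repeat and Lars2 0.669, and that of Zc3h7a and Lars2 0.260. The points share their library totals, and with 6 libraries these values are a description only.

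The models whose pattern was most like each locus were found among 4817 models with at least 50 reads in all, by the correlation of log2(CPM + 0.5) over the 6 libraries. For the Zc3h7a model they were models of Ttc4 (r = 0.992), Zfas1 (0.99), Ncoa6 (0.988), Cenpv (0.980) and Agap3 (0.979), each with no more than 99 reads in a library. For the chromosome 17 repeat they were models of Cdc42ep4 (r = 0.969), Bcor (0.964), St3gal2 (0.956), Dok2 (0.953) and Vac14 (0.95), each with no more than 52 reads in a library. At such low counts a high correlation is no finding.

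The models most like the Lars2 pair included far more abundant ones. They were 2 overlapping models in the span of Gphn, which encodes the synaptic scaffold protein gephyrin (r = 0.989 each), and models in no gene span on chromosome 16 (r = 0.986), chromosome 6 (r = 0.986) and chromosome 7 (r = 0.983). The chromosome 6 model of this set (chr6:49236453-49236640) had 228457 and 56147 reads in input 1 and 2, 12794 and 21163 in masked TH59-DB 1 and 2, and 10280 and 4335 in TH59-DB 1 and 2. Like the Lars2 end model, it was higher in both input libraries than in any captured library, and higher in input 1 than in input 2. Because it was picked by its correlation over these same libraries, this likeness in order is a description only. It was the largest model outside the loci in input 1, at 7.65% of the library. The larger Gphn model had 25762 and 6258 reads in the input and 439 to 2218 in the captured libraries.

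Together the 3 loci left very different numbers of reads for the rest of the transcriptome. Their summed share was 23.1% and 22.1% in input 1 and 2, 57.9% and 21.3% in masked TH59-DB 1 and 2, and 30.1% and 7.19% in TH59-DB 1 and 2. The summed counts of the other 7955 models were 857884 and 663686 in input 1 and 2, and 222610 and 678127 in masked TH59-DB 1 and 2. In TH59-DB 1 and 2 they were 520196 and 738479. Reads shared by overlapping models may enter these sums more than once. Masked TH59-DB 1 was the lowest, with a mean of 28.0 reads per other model against 65.4 to 108 elsewhere. A single read in that library stood for 0.507 CPM on the library total and for 1.21 CPM once the reads of the 4 models were taken out of the total.

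Masked TH59-DB 1, with the lowest summed count outside the loci, also detected the fewest models, 3614 of the other 7955. The counts of the other libraries were thinned in expectation to the same summed count of 222610. Then 5152 and 5539 models were expected in the input, 5718 in masked TH59-DB 2, 7949 in TH59-DB 1 and 5581 in TH59-DB 2. All 5 lay above 3614, but the value of TH59-DB 1 follows from its having at least 5 reads in every model. For models with at least 10 reads the order was different: masked TH59-DB 1 had 2410, which was within the thinned range of 1489 to 2963 of the other libraries.

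**Figure D3:**
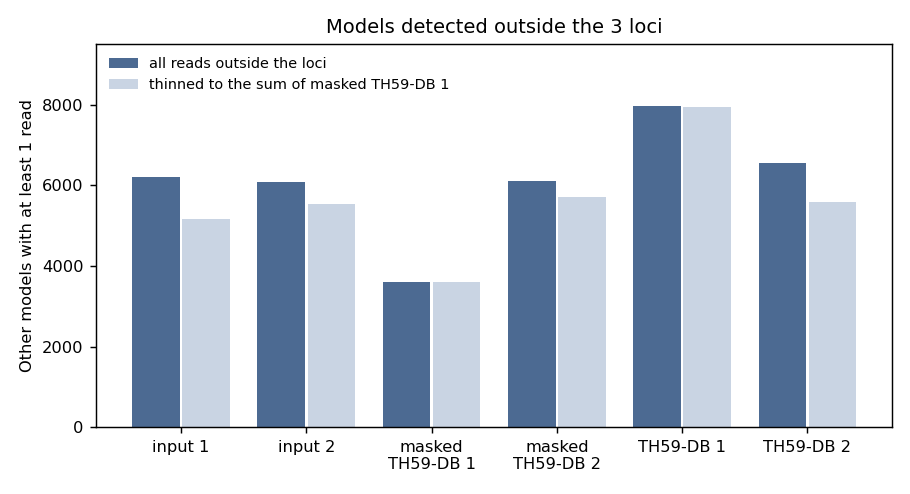
Bars give the number of models outside the 3 loci with at least 1 read in each library. Dark bars use all counts, and light bars the expectation after thinning to the summed count of masked TH59-DB 1, 222610. Masked TH59-DB 1 detects 3614 models, below the other 5 libraries at either depth.

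Taking the 4 models out of the library totals rescaled the libraries unequally. The total was 1.30 and 1.28 times the remainder in the input, 2.38 and 1.27 times in masked TH59-DB, and 1.43 and 1.08 times in TH59-DB. The log2 ratio of TH59-DB to masked TH59-DB of every other model moved by -0.73 between the libraries numbered 1 and by -0.24 between those numbered 2. The ratio of masked TH59-DB to the input moved by 0.87 and -0.02, and that of TH59-DB to the input by 0.14 and -0.25. On group mean CPM, 5460 of the 7955 other models (68.6%) were higher in TH59-DB than in masked TH59-DB on the library totals and 5146 (64.7%) once the loci were left out, with 349 models passing from higher to lower. That majority came from the libraries numbered 1, between which 84.8% of models were higher in TH59-DB on the totals and 76.9% without the loci; between those numbered 2 only 25.1% and 23.6% were. Between masked TH59-DB and the input, 3099 models (39.0%) were higher in masked TH59-DB on the totals and 3513 (44.2%) without the loci, with 425 passing from lower to higher. Between TH59-DB and the input the count went from 5425 to 5496, but the pairs went opposite ways. In the libraries numbered 1 the share of higher models went from 81.5% to 83.5%, and in those numbered 2 from 29.7% to 26.1%.

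Whether the loci affected which other models were called depended on how the libraries were scaled. The test was edgeR's quasi-likelihood test over 5385 models, which included all 4 models of the loci, at an adjusted p under 0.05, and the counts below are of the other 5381. With TMM scaling, which trims models of extreme ratio before it compares libraries, 76 of them (1.41%) were higher and 0 lower in TH59-DB than in masked TH59-DB. At an unadjusted p under 0.05 these counts were 445 and 91, and DESeq2 called 265 higher and 1 lower. With the 4 models taken out before both the filter on low counts and the scaling, 5475 models were tested and 86 were called higher and 0 lower, with all 76 kept and 10 gained. With the 4 models taken out but the same models tested, a setting added after the data were seen, 73 were called higher and 0 lower, all of them among the 76. The 3 that lost their call had adjusted p-values of 0.0494 to 0.0499 before and 0.0506 to 0.0512 after. Between TH59-DB and the input, 193 models (3.59%) were higher and 2 (0.0372%) lower, and the same 193 and 2 were called without the loci over the same models, with 1 more higher call when the filter was rerun. Between masked TH59-DB and the input 14 models (0.26%) were higher and 0 lower. The same 14 were called without the loci over the same models, and 18, including those 14, when the filter was rerun. At an unadjusted p under 0.05 that comparison had 208 higher and 158 lower models, and DESeq2 called 94 and 17. The 3 comparisons share libraries in pairs. All 7955 other models had reads in TH59-DB 1, while 4341 of them had 0 in masked TH59-DB 1. The part of this in the one-sided counts involving TH59-DB was not tested.

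The TMM counts moved when single libraries were left out, but the filter was rerun each time, so the models tested changed as well. With all 6 libraries 5381 other models were tested, and 5389 without TH59-DB 1. Without any one of the remaining libraries 7117 to 7274 were tested. The part of this change in the counts was not tested. Without masked TH59-DB 1 there were 313 calls between TH59-DB and masked TH59-DB, and 316 when the loci were also taken out. Without masked TH59-DB 2, so that masked TH59-DB 1 stood alone for its group, there were 1720, without TH59-DB 2 there were 32, without TH59-DB 1 there were 136, and without input 1 or input 2 there were 148 and 146. A library left alone in its group was assumed to vary like the others.

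With plain library totals the loci did change the calls. Between TH59-DB and masked TH59-DB, 153 models (2.84%) were higher and 2 (0.0372%) lower on the totals, against 133 (2.47%) higher and 29 (0.539%) lower on the totals less the 4 models. All 133 were among the 153, and both lower models kept their call. Between TH59-DB and the input the lower calls went from 22 (0.409%) to 93 (1.73%), and the higher calls from 207 (3.85%) to 212 (3.94%). Between masked TH59-DB and the input the higher calls went from 90 (1.67%) to 117 (2.17%), and there were 17 lower calls (0.316%) on either scale. With the sum of the model counts as library size, in which the loci hold 20.1% to 83.7% of the reads, the lower calls between TH59-DB and masked TH59-DB went from 0 to 117 and the higher calls from 94 to 116.

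The centre of the other models moved with these scalings. Their median log2 fold change between TH59-DB and masked TH59-DB was 0.31 with TMM and 0.30 with TMM without the loci. It was 0.09 on the totals and -0.12 on the totals less the 4 models, and it went from 0.07 to -0.59 on the sums of the model counts. Between masked TH59-DB and the input the median was -0.26 with TMM with or without the loci, 0.00 on the totals and 0.22 on the totals less the 4 models.

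**Figure D4:**
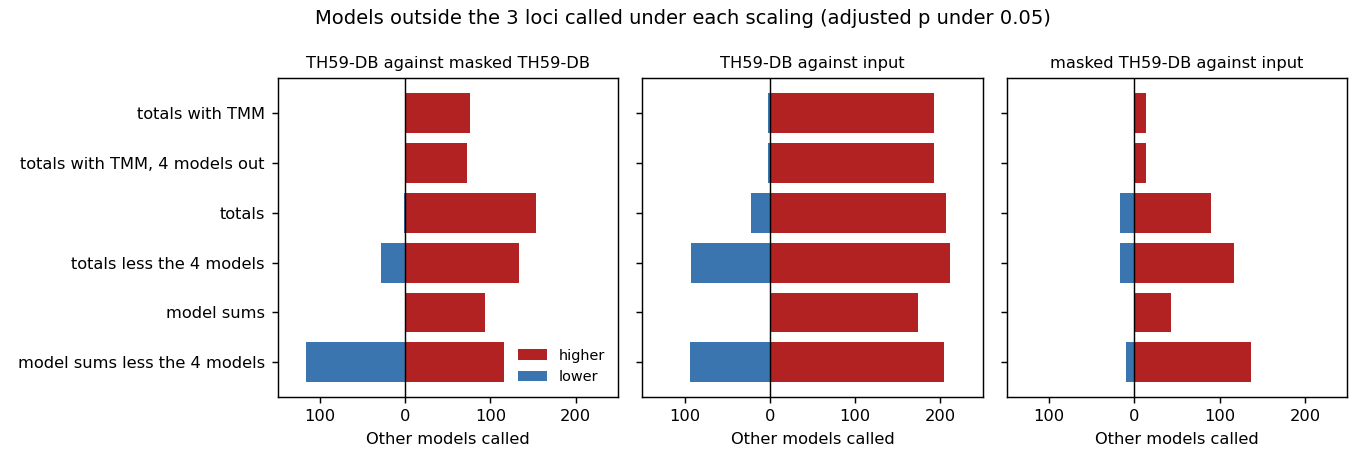
Bars give the number of models outside the 3 loci called higher (right, red) or lower (left, blue) by edgeR's quasi-likelihood test at an adjusted p under 0.05, for 6 ways of scaling and 3 comparisons. Taking the 4 models out with the same models tested leaves the TMM counts at 73 against 76 for TH59-DB over masked TH59-DB, but lower calls go from 2 to 29 on the totals and from 0 to 117 on the model sums.

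The models that gained or lost a call between TH59-DB and masked TH59-DB on the library totals numbered 47 over both directions. The 5 of them with the smallest adjusted p were all lower calls that appeared when the loci were left out. Kdm3a, a histone lysine demethylase, went from a log2 fold change of -2.90 (edgeR adjusted p = 0.0637) to -3.71 (edgeR adjusted p = 5.01e-04). Rnf187, a RING finger ubiquitin ligase, went from -2.72 (edgeR adjusted p = 0.0693) to -3.47 (edgeR adjusted p = 5.60e-04). Ccnl2, a cyclin that acts in splicing, Gm8730, and Ybx3, a cold-shock domain protein, reached log2 fold changes of -4.15, -2.80 and -3.48. In masked TH59-DB 1 and 2, Kdm3a had 240 and 93 reads, Rnf187 230 and 166, and Ccnl2 158 and 11. Gm8730 had 146 and 202 there, and Ybx3 98 and 77. In TH59-DB none of them had more than 48 reads in a library. The Ccnl2 reads thus lay mostly in masked TH59-DB 1, the library whose total shrank most without the loci.

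Individual reference genes showed the same shift on their group mean CPM. Each gene was represented by its model with the most reads, also where it had several, such as 11 for Kcnq1ot1 and 5 for Malat1. Terc, the telomerase RNA component, had 33.5 and 23.8 CPM in input 1 and 2, 77.1 and 47.7 in masked TH59-DB 1 and 2, and 31330 and 13957 in TH59-DB 1 and 2 on the library totals. It was 363-fold higher in TH59-DB than in masked TH59-DB on the totals and 246-fold higher without the loci. In the main setting, TMM on the library totals of all 6 libraries without a replicate block, Terc was the single reference gene called. Its log2 fold change over masked TH59-DB was 8.50 ± 1.44 (SE, edgeR adjusted p = 0.0248), and 8.49 (edgeR adjusted p = 0.0278) without the loci. Its call over masked TH59-DB and over the input was made under all 6 scalings shown in the plot of calls. Over masked TH59-DB the call was lost without masked TH59-DB 1 (log2 fold change 9.18, edgeR adjusted p = 0.0901) and without masked TH59-DB 2 (7.63, edgeR adjusted p = 0.0519), while the fold stayed large. Over the alternatives run for this gene that kept all the libraries of both groups compared, its adjusted p over masked TH59-DB was at most 0.0278. DESeq2 also called Rpph1 over masked TH59-DB (adjusted p = 3.36e-04) and over the input (adjusted p = 3.30e-04), and Kcnq1ot1 (adjusted p = 0.00392) and Malat1 (adjusted p = 0.0407) over the input. Kcnq1ot1 over the input, uncalled in the main setting (edgeR adjusted p = 0.0887), was called with TMM on the model sums (0.0301), with the replicate block (0.0283), with the 2 groups alone (0.00866), and without masked TH59-DB 1 (0.00237) or masked TH59-DB 2 (0.00181).

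For genes of smaller difference, leaving out the loci could turn the direction. Malat1, a nuclear long noncoding RNA, was 1.10 times as high in TH59-DB as in masked TH59-DB on the totals and 0.843 times without the loci. Rpph1, the RNA of ribonuclease P, was 0.843 times as high in masked TH59-DB as in the input on the totals and 1.19 times without the loci. Rn7sk, the RNA that holds the elongation factor P-TEFb inactive, went from 0.808 to 1.04 times in that comparison. None of these 3 passed the test on either scale. Between same-numbered libraries neither Malat1 nor Rpph1 turned in these comparisons, and Rn7sk turned only between those numbered 1. The total of masked TH59-DB 1 was 2.38 times its remainder, against at most 1.43 times in the other libraries. Rmrp, the RNA of ribonuclease MRP, which acts in ribosomal RNA processing, went from 2.06 to 1.62 times between TH59-DB and masked TH59-DB, and Kcnq1ot1, an imprinted noncoding RNA, from 2.08 to 1.85 times. Gata1, an erythroid transcription factor, went from 0.582 to 0.409 times and Actb, cytoplasmic actin, from 0.536 to 0.454 times. Gapdh, a glycolytic enzyme, stayed close, at 3.00 and 2.98 times. These ratios rest on only 0 and 11 Gapdh reads in masked TH59-DB 1 and 2, and 10 and 13 in TH59-DB 1 and 2. Actb against the input had a log2 fold change of -2.18 (edgeR adjusted p = 0.167) on the totals and -2.20 (edgeR adjusted p = 0.0373) without the loci.

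**Figure D5:**
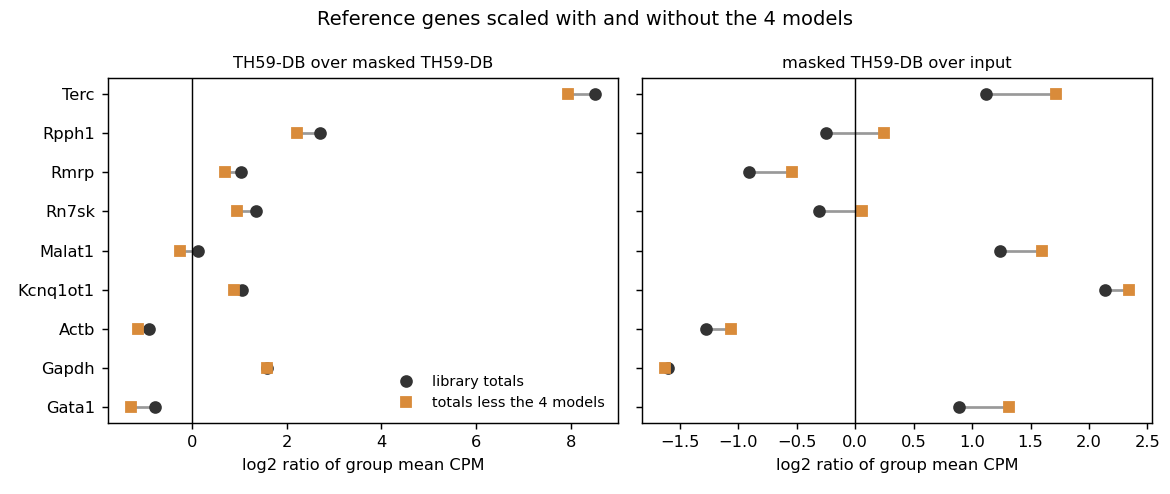
Each line joins the log2 ratio of group mean CPM of a reference gene on the library totals (circle) and on the totals less the 4 models (square), for TH59-DB over masked TH59-DB (left) and masked TH59-DB over the input (right). Malat1 crosses 0 on the left and Rpph1 and Rn7sk on the right.

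Genes that make or process ribosomal RNA were followed as a list of 48, of which 23 were assigned a model and 21 were tested. A gene with several models, such as Ncl with 5 and Ddx21 with 4, was represented by the model with the most reads. Its values are those of that model and not of the whole gene. With TMM scaling, 0 of the 21 passed edgeR's test in any of the 3 comparisons, where 0.26% to 3.62% of the other models did, and DESeq2 called 0 of them as well. At an unadjusted p under 0.05 there were 2, Polr1d and Nop2, both in masked TH59-DB against the input. The median log2 fold change of the 21 was 0.13 between TH59-DB and masked TH59-DB, beside 0.31 over all other models tested. Against the input the medians were -0.81 for TH59-DB, beside 0.03, and -0.95 for masked TH59-DB, beside -0.26.

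By role, all 13 tested genes of nucleolar processing had negative values in TH59-DB against the input, with a median of -0.97, while 50.9% of the other models had positive ones. In masked TH59-DB, the negative control, 12 of the 13 were negative against the input as well, with a median of -0.95. The other 2 genes of that role with a model fell under the filter: Heatr1 had 0 and 2 reads in the input and 10 and 0 in TH59-DB, and Rrp12 had 2 and 4 in the input and 14 and 2 in TH59-DB. Nucleolin (Ncl), the main nucleolar RNA-binding protein, was at 494 and 680 CPM in input 1 and 2, 320 and 791 in masked TH59-DB 1 and 2, and 326 and 297 in TH59-DB 1 and 2. The 7 tested genes of the polymerase I machinery had a median of 0.13 in TH59-DB against the input, with 4 positive and 3 negative; the difference between the roles was not tested. The gene of the list with the smallest p in that comparison, Polr1a, which encodes the largest polymerase I subunit, had a log2 fold change of 6.21 (edgeR adjusted p = 0.40) and no more than 8.32 CPM in any library. Nop2, an RNA methyltransferase of the large subunit, had the smallest p between TH59-DB and masked TH59-DB, with 0.507 and 0.961 CPM with masked TH59-DB against 13.3 and 1.93 with TH59-DB (edgeR adjusted p = 0.508).

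Of the 9 ribosomal RNA genes named on the list, Gm42418 is a synonym of Rn18s-rs5 and AY036118 overlaps the chromosome 17 model. A model was also assigned to mitochondrial mt-Rnr1. That model (chrM:7-4416) also spans neighbouring mitochondrial genes, so its reads are not those of mt-Rnr1 alone. Each model was given a single gene name, so mt-Rnr2, which was assigned none, may lie within it. A second model with the same outer coordinates had 32038 reads in input 1, beside 32670 for the one named mt-Rnr1. The model named mt-Rnr1 was at 10944 and 14748 CPM in input 1 and 2, and 1583 and 13504 in masked TH59-DB 1 and 2. In TH59-DB 1 and 2 it was at 2088 and 8462 CPM. It was lowest in masked TH59-DB 1 and TH59-DB 1, the libraries in which the Zc3h7a model held its highest shares; the part of either in the other was not tested. Its log2 fold change was 0.24 between TH59-DB and masked TH59-DB and -0.92 between TH59-DB and the input, and neither passed edgeR's test.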

How the data were processed

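RNA libraries of 6 MEL samples in 3 groups of 2 were analysed. The authors deposited, for each library, whole-number read counts per assembled transcript model and FPKM values, which equal the count divided by model length and a library total; that total was recovered from the 2 columns, and what it counts is not stated. Per the submitters' processing notes, cutadapt, HISAT2, Cufflinks, featureCounts and mm10 were used, without versions or roles; how reads with several matches were counted is not given in the sources used here. A count of 0 carries the FPKM of 1 read in 4 libraries and an FPKM of 0 in masked TH59-DB 1, so counts were used throughout. The files of a group were joined by model coordinates (7959 models). Genes were named from RefSeq spans of GRCm38.p6. A single-exon model holding a whole gene of at most 1000 bases took its name, if the model was at most 8 times as long. Other models were named for the shortest span holding at least 50% of their bases. Shares are reads over the recovered total. Tests used edgeR 4.0.16 in R 4.3.3 (filterByExpr, TMM, quasi-likelihood, all 6 libraries, Benjamini-Hochberg adjustment over all tested models). They were also run on simulated counts, but without the uneven loci of these libraries, so that run does not bear on the calls reported here. DESeq2 1.42.0 served for an alternative. The alternatives changed the library size, filter, tool, replicate block, TMM reference and libraries used. The reported genes were the 9 fixed reference genes, those of smallest p on the ribosomal RNA list, the 5 models most like each locus, and up to 5 models of changed call. A listed gene with several models was represented by the model with the most reads over the 6 libraries. The loci and lists were chosen with earlier results of these data known. No genome sequence was used, so no sequence of the loci is shown.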

Additional observations from a re-analysis of the deposited data

How the results depend on the processing

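Groups of 2 libraries, 1 with few reads left outside the loci, limit all calls below. Fits that left out a library reran the filter, so their counts come from other numbers of tested models. Calls between TH59-DB and masked TH59-DB (76) became 155 on the totals, 162 on the totals less the 4 models, 233 on the model sums less them, 155 on the sums with TMM, 266 with DESeq2, 206 with no filter, 191 with a replicate block, 129 with the 2 groups alone, and 166, 151, 125, 148 and 165 with the other TMM reference libraries. Leaving out each library gave 32 to 1720. Calls between TH59-DB and the input (195) became 298 on the model sums less the 4 models, 305 on the totals less them, 392 with DESeq2, 311 with no filter, 362 with a replicate block and 497 with the 2 groups alone. Leaving out each library gave 102 (without TH59-DB 2) to 756 (without masked TH59-DB 2), with 708 without masked TH59-DB 1. Calls between masked TH59-DB and the input (14) became 107 on the totals, 134 on the totals less the 4 models, 43 on the model sums, 147 on the sums less them, 50 on the sums with TMM, 111 with DESeq2, 113 with no filter, 105 with a replicate block, and 48, 32, 26, 32 and 52 with other TMM references. Leaving out each library gave 0 (without input 1 or input 2) to 1413 (without masked TH59-DB 2), with 99 without masked TH59-DB 1, 69 without TH59-DB 1 and 63 without TH59-DB 2. When masked TH59-DB 1 and the 4 models were left out together, the counts were 316, 710 and 100 in the same order of comparisons, and the median for TH59-DB over the input was 0.54.

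The numbers of the libraries are not stated to mark a batch, and same-numbered deviations from the group means correlated at 0.110 (input and masked TH59-DB), 0.0579 (input and TH59-DB) and -0.0561 (masked TH59-DB and TH59-DB) over 5385 models, so the replicate block is given here alone. The median log2 fold change of TH59-DB over the input (0.03) became 0.41 with DESeq2, 0.77 with no filter, 0.36 on the sums with TMM and 0.34 with TH59-DB 2 as TMM reference, and -0.00058 to 0.57 leaving out each library. Leaving out each library gave medians of 0.26 to 5.12 for TH59-DB over masked TH59-DB and -1.53 to 0 for masked TH59-DB over the input. Without masked TH59-DB 2 they were 5.12 and -1.53.

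As a percentage of the model counts, the mean share of Zc3h7a was 29.4%, 52.3% and 21.6% in the input, masked TH59-DB and TH59-DB (73.4% in masked TH59-DB 1 and 7.76% in TH59-DB 2), that of the chromosome 17 repeat 17.03%, 14.2% and 14.0%, with masked TH59-DB 1 (10.3%) below TH59-DB 2 (12.4%), and that of Lars2 0.256%, 0.0253% and 0.0218%. On the library totals, leaving out 1 library of a group gives the single values printed above.

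Directions of uncalled reference genes also turned. On the totals less the 4 models and the model sums less them, the log2 fold change was 0.25 and 0.51 for Rpph1 and 0.061 and 0.33 for Rn7sk (masked TH59-DB over the input), and -0.25 and -0.67 for Malat1 (TH59-DB over masked TH59-DB). Over the input, Rmrp in TH59-DB (-0.05) was 0.13 on the totals, 0.16 on the totals less the 4 models, 0.14 on the sums, 0.0074 on the sums less them, 0.24 on the sums with TMM, 0.33 with DESeq2, 0.023 with the replicate block and 0.050 with the 2 groups alone. Gapdh (0.13) was -0.019, -0.054 and -0.23 on the totals, the totals less the 4 models and the sums less them, and Gata1 (0.28) was -0.069 on the last. Leaving out each library ranged from -0.64 to 0.22 for Rpph1 (masked TH59-DB over the input), and for TH59-DB over masked TH59-DB from -0.12 to 0.86 for Malat1, -1.10 to 0.012 for Actb and -1.49 to 0.27 for Gata1. For TH59-DB over the input it ranged from -0.57 to 0.69 for Rmrp, -0.65 to 0.81 for Gapdh and -0.96 to 1.17 for Gata1. The cause of these turns was not tested.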
